A study of Danio rerio with 6 samples.

Results

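The 7 genes described here, nphs1, wt1a, wt1b, pax2a, hnf1ba, cdh17 and slc20a1a, are used to mark the pronephros, the embryonic kidney of zebrafish, and its podocytes. They were taken by name from a table of 35197 gene rows measured in whole embryos at 48 hours post-fertilization, and each name stood on 1 row. The groups were 3 libraries of wildtype embryos and 3 libraries of embryos homozygous for a dnajc21 mutation, none of them treated, each made from pooled RNA of 30 to 50 animals. Dnajc21 is a co-chaperone of large ribosomal subunit assembly. In the table, wildtype libraries are headed casper, the name of a strain lacking melanophores and iridophores, and the labels give neither the strain of the mutants nor the lesion, so strain and mutation cannot be told apart in any difference below. No label ties the pools to clutches, so p-values rest only on how far these libraries spread, some of which may be technical.

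The pronephros filters blood at a fused midline glomerulus, whose podocytes hold back protein with a slit diaphragm, and passes the filtrate through paired tubules and ducts, whose segments carry different transporters. Wt1 proteins direct podocyte formation, Pax2a sets up the intermediate mesoderm and the neck and duct of the nephron, and the later genes build the slit diaphragm, the epithelium and the transport machinery. Most of these genes are also used elsewhere. Pax2a is known from the midbrain-hindbrain boundary, the optic stalk and the ear, hnf1ba from the hindbrain and the gut, and wt1a and wt1b from the epicardium, so a whole-embryo level does not belong to the kidney alone.

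Total counts ran from 8600951 to 11798543 per library, and 20229 genes had enough counts to be tested, all 7 members among them. The dnajc21 transcript was lower in mutants by 0.55 on the log2 scale (SE 0.12; edgeR's quasi-likelihood test with Benjamini-Hochberg adjustment, adjusted p = 0.00492). Levels are given as CPM, counts scaled to a common library total with TMM factors, and a gene was called where its adjusted p was under 0.05. Pairs of mutant libraries differed least from each other (chi-square per gene 2.08 to 2.78), and wildtype replicate 2 differed most from the others (26.9 to 35.1), so values without it are given beside the calls of the members. CPM does not correct for transcript length, so levels of different genes are not ranked.

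Among the members, slc20a1a was higher and pax2a lower in dnajc21 mutants, and the other 5 did not pass the test. The 2 called of 7 stand beside 11.7% of all tested genes called, 5.85% higher and 5.87% lower. Their groups were also the only ones of the 7 that did not overlap, which is no excess over the 30.5% of all tested genes. The members' median log2 fold change was 0.12, with 5 of 7 above 0, beside a median of -0.01 and 49% above 0 over all tested genes.

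**Figure D1:**
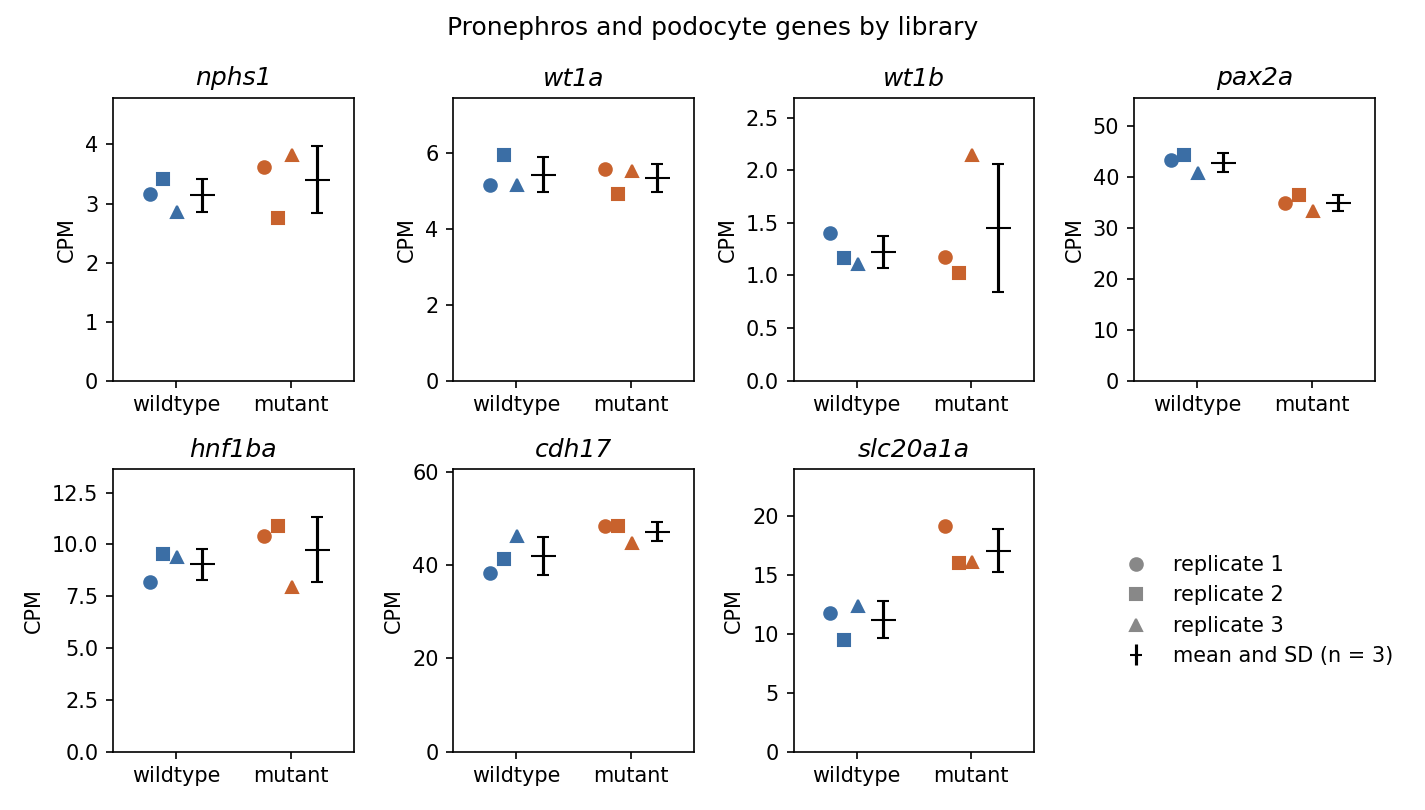
Level of each member in CPM (vertical axes, each from 0) in the 3 wildtype and 3 mutant libraries, with a symbol per replicate and the mean and SD at the right of each group. The groups lie apart for pax2a (33.4 to 36.4 CPM in mutants, 40.7 to 44.4 in wildtype) and slc20a1a (16 to 19.2 against 9.46 to 12.4) and overlap for the other 5 genes. Over all tested genes, the groups lie apart for 30.5%.

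The podocyte gene nphs1 encodes nephrin, the adhesion protein that spans the slit diaphragm. It measured 3.16, 3.41 and 2.85 CPM in wildtype replicates 1 to 3 and 3.62, 2.76 and 3.83 CPM in mutant replicates 1 to 3. The mutant range enclosed the wildtype range. The means were 3.14 ± 0.279 and 3.41 ± 0.567 CPM (SD, n = 3 per group here and below). The log2 fold change was 0.12 (SE 0.23, edgeR adjusted p = 0.792). Its 95% interval ran from 0.779-fold to 1.52-fold, so changes within these bounds were not excluded. The row held 27 to 43 counts per library, which alone carries a counting error of 15.2% to 19.2%.

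The transcription factor gene wt1a, needed for podocyte formation in zebrafish, measured 5.15, 5.95 and 5.16 CPM in wildtype and 5.56, 4.91 and 5.52 CPM in mutants. All 3 mutant values lay within or just under the wildtype range. The log2 fold change was -0.02 (SE 0.18, 95% interval -0.39 to 0.35, edgeR adjusted p = 0.959), with means of 5.42 ± 0.458 and 5.33 ± 0.361 CPM.

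Its duplicate wt1b, a later podocyte gene, was the lowest in counts of the 7. It had 1.4, 1.17 and 1.11 CPM in wildtype and 1.18, 1.02 and 2.15 CPM in mutants. Mutant replicate 3 stood above the other 5 libraries, which lay between 1.02 and 1.4 CPM. The log2 fold change was 0.25 (SE 0.39, 95% interval -0.56 to 1.06, edgeR adjusted p = 0.738), and -0.14 without mutant replicate 3 (adjusted p = 0.908). The wt1b row is also the only member with non-whole counts, in 5 of 6 libraries. In each of these 5 libraries their sum with those of 1 other row, kifc3, is whole (tolerance 0.011). In mutant replicate 3, the library that stood above the others, both rows are whole by themselves (23 and 440 counts). The kifc3 gene encodes a kinesin motor. A RefSeq gene table of assembly GRCz12tu lists wt1b as overlapping kifc3 on one side and eif3m on the other. The eif3m row measured 294 CPM in wildtype and 291.1 CPM in mutants. From the whole sums, reads were shared between the wt1b and kifc3 rows, and the wt1b level is uncertain. Summed after the data had been seen, the wt1b and kifc3 rows held 43.4 ± 1.76 CPM in wildtype and 44.5 ± 1.58 CPM in mutants (0.04 on the log2 scale with SE 0.08, edgeR adjusted p = 0.822). This total is mostly kifc3 (42.2 ± 1.86 and 43 ± 1.98 CPM).

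Among 33 tested genes of the podocyte and glomerulus list, which holds nphs1, wt1a and wt1b, 3 were higher and 0 lower in mutants, 9.09% against 11.7% of all tested genes. For the lower direction, 1 gene had an unadjusted p under 0.05 in edgeR, and DESeq2 and limma-voom called 0 each. The list median log2 fold change was 0.09. The sialomucin gene podxl, which coats podocyte foot processes and also blood vessels, rose from 45 ± 2.92 to 54.2 ± 0.89 CPM (0.27 on the log2 scale, SE 0.08, edgeR adjusted p = 0.0271). The phospholipase gene plce1, whose human counterpart is a nephrotic syndrome gene, rose from 10.7 ± 0.807 to 14.5 ± 0.171 CPM (0.44, SE 0.12, adjusted p = 0.0226). The third, crb2a, encodes a Crumbs polarity protein known in zebrafish from the retina and neural tube, and rose from 21.7 ± 1.57 to 33.3 ± 1.95 CPM (0.62, SE 0.09, adjusted p = 0.000238). Only crb2a was called by DESeq2 and with any 1 library left out. The calls of plce1 and podxl ended with DESeq2 (adjusted p = 0.235 and 0.139) and without wildtype replicate 3 (0.0648 and 0.0551) or mutant replicates 1 (0.0715 and 0.0756), 2 (0.0854 and 0.098) or 3 (0.0691 and 0.0662).

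The transcription factor gene pax2a, in which the no isthmus mutants are defective, was the member that fell. It measured 43.4, 44.4 and 40.7 CPM in wildtype and 34.9, 36.4 and 33.4 CPM in mutants. Every mutant library lay below every wildtype library, as for 15.4% of all tested genes. The SDs, 1.93 and 1.53 CPM around means of 42.9 and 34.9 CPM, were small beside the gap. The log2 fold change was -0.30 (SE 0.08, 95% interval -0.46 to -0.13, edgeR adjusted p = 0.0174), a 0.814-fold level. It no longer passed in edgeR when wildtype replicate 2 was left out (-0.27, adjusted p = 0.058), mutant replicate 1 (-0.29, 0.0749) or mutant replicate 3 (-0.26, 0.105). Nor did it pass with DESeq2 (-0.29, adjusted p = 0.151). The direction was the same in all 15 alternatives tried, but these reuse the same counts. With groups that do not overlap, leaving out 1 library leaves the direction as it was, so this is not separate support. In a pool of whole embryos, fewer cells of a type and less RNA per cell cannot be told apart.

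The related genes of the Pax2/5/8 family took both signs. The duplicate pax2b measured 7.26, 8.77 and 6.54 CPM in wildtype and 5.14, 5.83 and 5.98 CPM in mutants. Its groups did not overlap either, as for 30.5% of all tested genes. The log2 fold change of -0.41 (SE 0.17) did not pass (edgeR adjusted p = 0.126). The kidney and thyroid gene pax8, which acts with pax2a in the early nephron, had 17.4 ± 1.13 and 19.1 ± 0.618 CPM (0.13, edgeR adjusted p = 0.478). The pax8 groups did not overlap either, in the other direction, with mutants higher, as for 15.1% of all tested genes. They nearly touched, as wildtype replicate 3 and mutant replicate 3 were both at 18.6 CPM after rounding. Pax2a is also active in the midbrain-hindbrain boundary, ear and optic stalk. Of the other 20 genes tested in the list for these sites, edgeR called 0, beside 11.7% of all tested genes. The list, pax2a included, held 1 higher and 3 lower at an unadjusted p under 0.05 in edgeR, and DESeq2 called 0 in it. The median log2 fold change of these 20 was 0.11. A single gene of the 20 was called lower without wildtype replicate 3 or with the replicate number as a block. The part of these sites in the fall of pax2a was not tested.

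The homeobox gene hnf1ba measured 8.19, 9.55 and 9.39 CPM in wildtype and 10.4, 10.9 and 7.95 CPM in mutants. Mutant replicates 1 and 2 were the highest of the 6 libraries and mutant replicate 3 the lowest. The means were 9.05 ± 0.744 and 9.75 ± 1.57 CPM (0.10 on the log2 scale, SE 0.15, 95% interval -0.21 to 0.41, edgeR adjusted p = 0.724). Its duplicate hnf1bb had 3.87 ± 1.09 and 2.92 ± 0.399 CPM (-0.41, SE 0.25, adjusted p = 0.311), from 25 to 55 counts per library. In the list of hindbrain rhombomere genes, 10 were tested, hnf1ba and hnf1bb included, and 0 were called by edgeR, DESeq2 or limma-voom, with 0 at an unadjusted p under 0.05 in edgeR, beside 11.7% called over all tested genes.

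Of 34 tested nephron transcription factors, 0 were higher (1 at an unadjusted p under 0.05 in edgeR, and 0 by DESeq2 and limma-voom) and 3 lower, 8.82% against 11.7% of all tested genes, with a median log2 fold change of -0.03. Beside pax2a these were tfap2b, from 63.1 ± 3.36 to 47.2 ± 2.13 CPM (-0.42, SE 0.08, edgeR adjusted p = 0.00126), and tfap2a, from 149 ± 8.49 to 121 ± 7.74 CPM (-0.30, SE 0.07, adjusted p = 0.00925). Both AP-2 genes act in the distal nephron and are known above all from neural crest and epidermis. The tfap2a call ended without mutant replicate 2 (0.0777) or 3 (0.079). Without mutant replicate 3 the lower count was 1, and without wildtype replicate 2 or 3 the higher count was 1. The early kidney field gene lhx1a (-0.07, adjusted p = 0.577) and the distal segment gene mecom (-0.04, adjusted p = 0.881) were not called. For lhx1a, mutant replicate 1 (112 CPM) lay above the wildtype libraries (108 to 110 CPM) and mutant replicates 2 and 3 (99.9 and 99.7 CPM) below them.

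**Figure D2:**
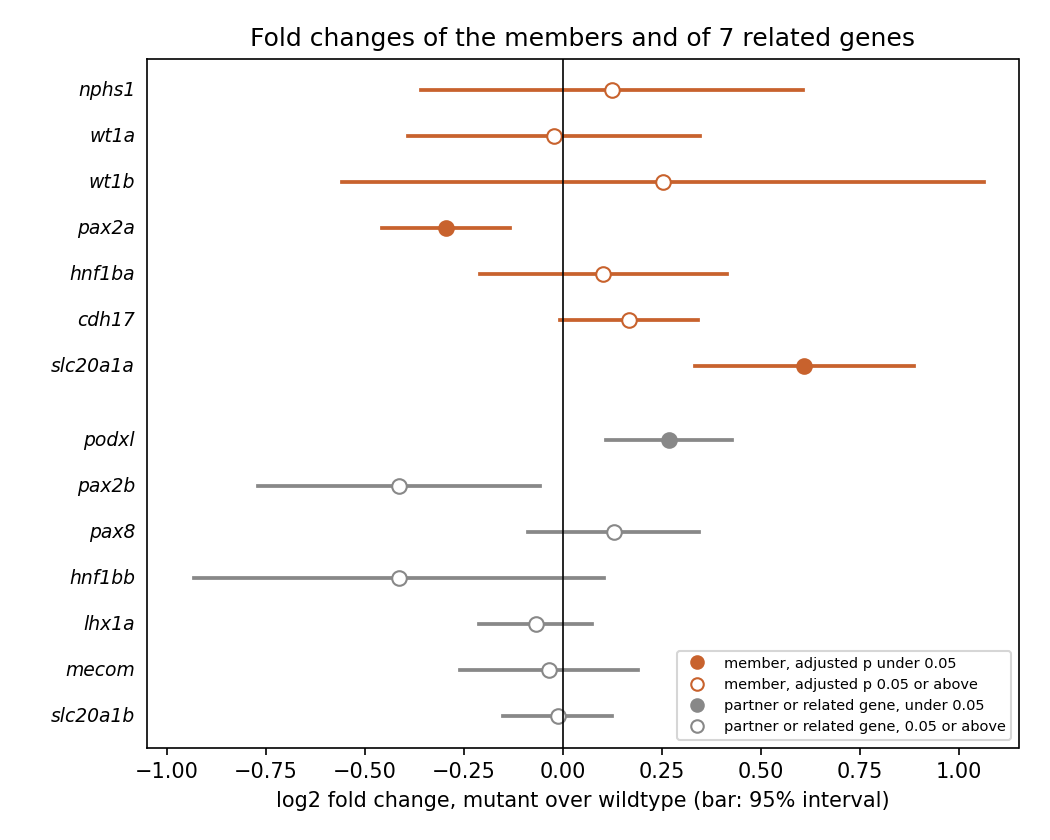
Log2 fold change of mutant over wildtype (horizontal axis) with its 95% interval for the 7 members and 7 related genes; filled points passed the adjusted p threshold of 0.05. Among members, the intervals of pax2a (-0.46 to -0.13) and slc20a1a (0.33 to 0.89) stay clear of 0, and that of wt1b (-0.56 to 1.06) is the widest shown. Those of the related genes podxl (0.11 to 0.43) and pax2b (-0.77 to -0.06) also stay clear of 0, but pax2b did not pass the adjusted threshold.

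The cadherin gene cdh17, a marker of pronephric tubule and duct epithelium, measured 38.3, 41.3 and 46.2 CPM in wildtype and 48.3, 48.4 and 44.8 CPM in mutants. Only wildtype replicate 3 reached into the mutant range. The means were 41.9 ± 4.02 and 47.2 ± 2.06 CPM (0.17 on the log2 scale, SE 0.08, 95% interval -0.01 to 0.34, edgeR adjusted p = 0.221). With 327 to 573 counts per library, its interval reaches 1.27-fold at most.

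The sodium-phosphate cotransporter gene slc20a1a, a marker of the proximal convoluted tubule in zebrafish, was the member that rose. It measured 11.8, 9.46 and 12.4 CPM in wildtype and 19.2, 16 and 16.1 CPM in mutants. The lowest mutant library lay above the highest wildtype library, as for 15.1% of all tested genes. The means were 11.2 ± 1.57 and 17.1 ± 1.84 CPM. The fold change was 0.61 on the log2 scale (SE 0.13, 95% interval 0.33 to 0.89, edgeR adjusted p = 0.00512), or 1.53-fold. The call held in all 15 alternatives, at log2 fold changes of 0.50 to 0.70. It was 0.50 without wildtype replicate 2 (adjusted p = 0.0225), and the highest adjusted p, 0.0453, came without mutant replicate 1. The duplicate slc20a1b measured 198 ± 8.77 and 196 ± 8.37 CPM (-0.01, 95% interval -0.15 to 0.13, adjusted p = 0.932). The intervals of the duplicates do not overlap; the difference between them was not tested.

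Ratios to cdh17 within a library need no scaling between libraries. Per 100 cdh17 counts, slc20a1a had 30.9, 22.9 and 26.9 counts in wildtype and 39.8, 33 and 35.9 in mutants. Pax2a had 113, 108 and 88 counts in wildtype and 72.3, 75.3 and 74.5 in mutants. For these genes the groups did not overlap here either, with mutant over wildtype ratios of 1.35 and 0.718. No share over all genes was computed for such ratios. The ratios reuse the counts above, and cdh17 itself measured 1.12-fold in mutants (not called), which lowers each ratio. The ratios of nphs1 (0.96), wt1a (0.871), wt1b (1.04) and hnf1ba (0.953) overlapped between groups. These ratios were not tested.

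**Figure D3:**
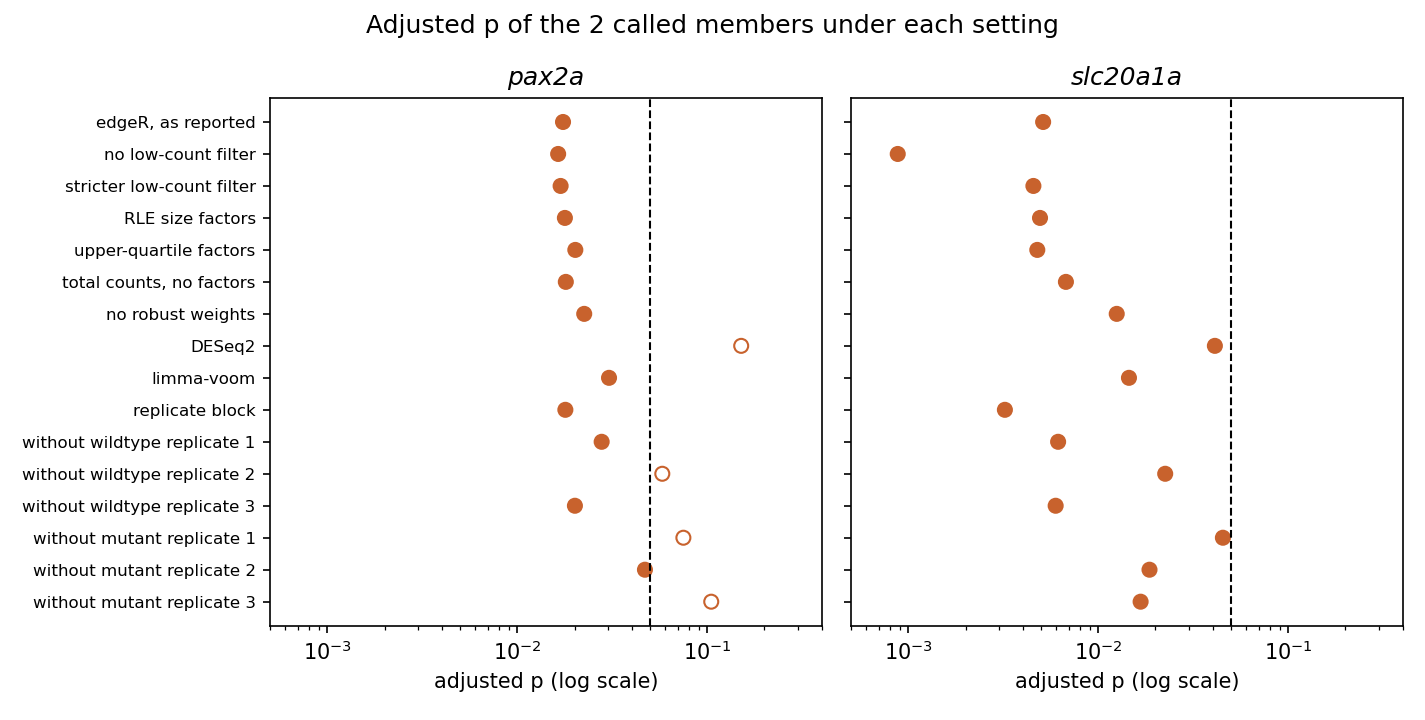
Adjusted p (horizontal axis, log scale) of pax2a and slc20a1a under each setting named on the vertical axis; the dashed line marks 0.05 and open points lie at or above it. All points of slc20a1a lie under the line, the highest at 0.0453, and those of pax2a pass it with DESeq2 (0.151) and without wildtype replicate 2 (0.058) or mutant replicate 1 (0.0749) or 3 (0.105).

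The list of tubule and duct transport genes holds slc20a1a. Of 33 tested, 7 were higher and 1 lower, 24.2% against 11.7% of all tested genes, 22 had a positive log2 fold change and the list median was 0.17. Without slc20a1a, 6 of the other 32 were higher and 1 lower. This list and the other lists were chosen with earlier results of these data known, so such shares are not separate support. A further 10 of the 44 listed had too few counts to test. Beside slc20a1a, the thiazide-sensitive sodium-chloride cotransporter gene slc12a3, a marker of the late distal segment, rose from 6.59 ± 0.473 to 11.4 ± 0.828 CPM (0.79, SE 0.14, edgeR adjusted p = 0.00114). The sulfate transporter gene slc26a1 rose from 5.77 ± 0.815 to 9.93 ± 0.978 CPM (0.77, SE 0.16, adjusted p = 0.00354). The organic anion transporter gene slc22a6l rose from 11.2 ± 0.872 to 16.9 ± 0.737 CPM (0.60, adjusted p = 0.00247) on a row with non-whole counts in 4 libraries.

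The endocytic adaptor gene dab2, which works with megalin in the proximal tubule, rose from 24.3 ± 1.24 to 31.6 ± 1.38 CPM (0.37, edgeR adjusted p = 0.00857). For each of these 4 genes and slc20a1a, the 3 mutant libraries lay above the 3 wildtype libraries, as for 15.1% of all tested genes. The 4 genes were named because they were called, so this is not separate support. The other called genes of this list were named after their values were seen. They were the sodium pump gene atp1a1a.2 (0.25), the carbonic anhydrase gene ca4a (0.49) and, as the only one lower, the carnitine transporter gene slc22a5 (-0.90). The megalin gene lrp2a (0.275, edgeR adjusted p = 0.118) was not called. Nor were the listed genes cubn (-0.155, 0.574) and amn (0.039, 0.968). The dab2 call ended with DESeq2 (adjusted p = 0.0855) and without mutant replicate 3 (0.0581), where 4 genes of the list were higher. The lower count was 0 with DESeq2 and without wildtype replicate 3 or mutant replicate 1 or 2, and 2 without wildtype replicate 1.

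In the list of tubule epithelium and its signals, which holds cdh17, 5 of 24 tested were higher and 1 lower, 25% against 11.7% of all tested genes, with a list median of 0.16. This list too was chosen with earlier results of these data known. The Notch ligand genes jag1b and jag1a rose from 19.3 ± 2.78 to 30 ± 0.793 CPM (0.63, edgeR adjusted p = 0.000595) and from 22.1 ± 1.77 to 30.6 ± 2.37 CPM (0.47, adjusted p = 0.00333). The retinoic acid hydroxylase gene cyp26a1 rose from 23 ± 2.89 to 33.5 ± 1.46 CPM (0.54, adjusted p = 0.00134). These are signalling genes of many embryonic tissues. The polycystin gene pkd1a, whose human counterpart is mutated in polycystic kidney disease, fell from 11.1 ± 2.39 to 5.14 ± 0.842 CPM (-1.11, SE 0.18, adjusted p = 0.000504). The other listed polycystin genes, pkd1b (0.331, edgeR adjusted p = 0.177) and pkd2 (0.255, 0.261), had positive fold changes and were not called. The Notch receptor gene notch3 (0.29) and the cadherin gene cdh1 (0.32) were the other called genes of this list, named after their values were seen. The higher count was 3 without mutant replicate 2 or 3.

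Of 15 tested genes of multiciliated cells, which drive fluid along the tubule, 0 were higher (3 at an unadjusted p under 0.05 in edgeR, 0 by DESeq2 and limma-voom) and 1 lower, 6.67% against 11.7% of all tested genes. The intraflagellar transport gene ift88 fell from 15.7 ± 1.79 to 10.3 ± 0.731 CPM (-0.61, SE 0.13, edgeR adjusted p = 0.00369), on a row with non-whole counts in 2 libraries. Of 12 tested genes of the interrenal gland and the corpuscles of Stannius, which lie beside the pronephros, 0 were called by edgeR, DESeq2 or limma-voom, with 0 at an unadjusted p under 0.05 in edgeR, beside the same 11.7%. Over the 5 kidney lists together and without the members, 14 of 127 tested genes were higher and 5 lower, 15% against 11.7% of all tested genes, with a median log2 fold change of 0.09. The higher and lower counts were 8 and 3 without mutant replicate 2, 7 and 4 without mutant replicate 3, and 9 and 4 with DESeq2. Over all tested genes the counts fell as well, from 1184 and 1188 to 615 and 627, 678 and 678, and 635 and 585 in these settings.

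The gut and the epicardium also express members. Of 16 tested genes of gut and liver epithelium, 0 were higher (1 at an unadjusted p under 0.05 in edgeR, 0 by DESeq2 and limma-voom) and 2 lower, 12.5% against 11.7% of all tested genes. These were the fatty acid binding protein genes fabp2, from 209 ± 6 to 148 ± 7.04 CPM (-0.50, edgeR adjusted p = 6.57e-05), and fabp1b.1 (-0.27, adjusted p = 0.00909), the second call ending without mutant replicate 1 (0.0655) or 2 (0.0934). Of 11 tested genes of epicardium and mesothelium, col1a2, for a collagen chain, rose (0.24, adjusted p = 0.0126) and lum, for the proteoglycan lumican, fell (-0.22, adjusted p = 0.038), 18.2% against 11.7% of all tested genes. Leaving out wildtype replicate 3 (0.0701), mutant replicate 1 (0.0619) or mutant replicate 2 (0.115) ended the col1a2 call. Leaving out any library but wildtype replicate 3 ended that of lum (0.0606 to 0.18), as did DESeq2 (0.127) and the fit without robust weights (0.057). The part of gut and epicardium in the members' levels was not tested.

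**Figure D4:**
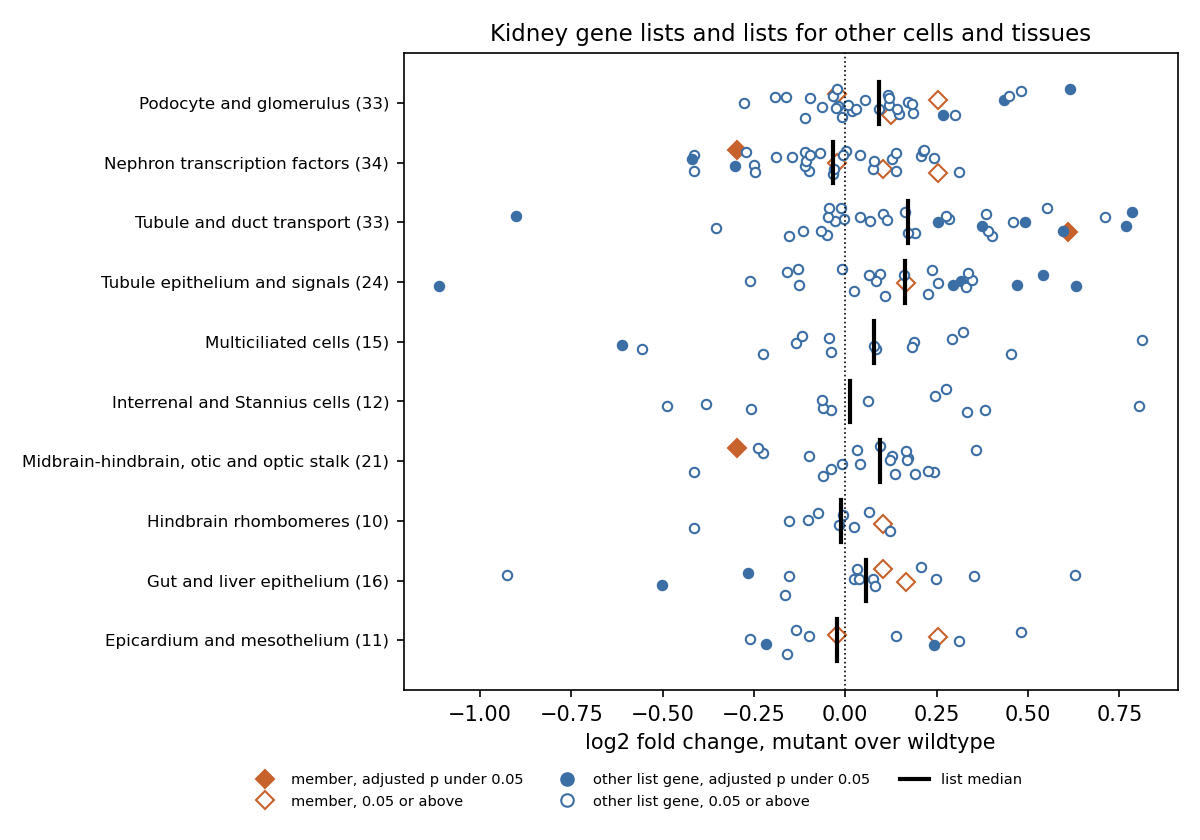
Log2 fold change (horizontal axis) of each tested gene of 10 lists, with the number tested in brackets, members as diamonds, filled symbols for adjusted p under 0.05 and a black bar at each list's median. The medians of the transport list (0.17) and the tubule epithelium list (0.16) are the highest of the 10, and that of the nephron transcription factors (-0.03) is the lowest. The lists were chosen with earlier results of these data known.

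The members differed from each other in their profiles over the 6 libraries. After centring each gene's log2 CPM on its own mean, nphs1 and wt1a were the closest pair (root mean square difference 0.112 over 6 libraries), followed by hnf1ba and cdh17 (0.121), and pax2a and slc20a1a the farthest apart (0.482). Mutant replicate 2 was the lowest library for nphs1, wt1a and wt1b, at -0.22, -0.12 and -0.30 log2 units from each gene's mean. That library held 27, 48 and 10.39 counts of these genes. The counting error of the 3 rows reaches 19.2%, 15.1% and 31.6% per library, and the wt1b level is uncertain as stated above. Among all tested genes, the profile nearest to that of pax2a was that of atp1a3a (0.018), a neuronal sodium pump subunit, then washc4 (0.023), and the nearest to slc20a1a were tkfc (0.053) and the WNK kinase gene wnk4b (0.074). The nearest genes were myrip (0.031) and arl16 (0.032) for nphs1, btbd9 (0.022) and fnbp1l (0.027) for wt1a, and skap2 (0.137) and mctp2a (0.144) for wt1b. They were zbed4 (0.025) and mtmr8 (0.047) for hnf1ba, and lrrc58b (0.023) and espl1 (0.029) for cdh17. With 6 libraries and 20229 genes some profiles always lie close, so these are descriptions only.

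In gene order, read from the GRCz12tu table, none of the 7 members is next to dnajc21. The nephrin family gene kirrel3l overlaps nphs1 there and had a log2 fold change of 0.18 (edgeR adjusted p = 0.16). Of the genes next to pax2a, chst3a (-0.20, adjusted p = 0.655) and cuedc2 (0.08, adjusted p = 0.773) did not pass. Beside slc20a1a, the splicing helicase gene snrnp200 was higher (0.24, adjusted p = 0.0274) and vgll4l was not called (-0.01, adjusted p = 0.972). Beside hnf1ba, the dynein light chain gene dynll2a was lower (-0.62, adjusted p = 8.07e-05), while hnf1ba itself was not called.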

How the data were processed

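The deposited table, 1 for the whole series, holds expected counts (estimated counts) of each gene row in each library, with no scaling between libraries. STAR, RSEM, DESeq2 and genome build danRer11 are named per the submitters' processing notes; versions, annotation and use of strand are not given in the sources used here. Wildtype columns, headed casper, were matched to samples by number. After rounding, all genes were fitted together with edgeR 4.0.16 under R 4.3.3: filterByExpr (minimum count 10), TMM factors, robust quasi-likelihood test, Benjamini-Hochberg adjustment over 20229 genes. Each SE is the size of the log2 fold change over the square root of F. The limit that a count of 0 allows is 3 counts (0.253 to 0.351 CPM); it covers counting error alone, as PCR copies are not separate molecules.

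Alternatives were other scalings, other filters, no robust weights, DESeq2 1.42.0, limma-voom (limma 3.58.1), the replicate number as a block, and leaving out each library; summing wt1b with kifc3 was added after the data were seen. The members, lists and tests were chosen with earlier results of these data known. Named genes are the members, dnajc21, 7 related genes, up to 4 called genes of each of 10 lists in order of adjusted p, and for each member the 2 genes with the nearest centred log2 CPM profile; 1 more gene of this rule is not reported here. All 7 symbols were found in the RefSeq table of GRCz12tu, used for names and neighbours alone. The scripts were tested on simulated data. Plots used matplotlib 3.10.9 under Python 3.11.15.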

Additional observations from a re-analysis of the deposited data

How the results depend on the processing

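The call of slc20a1a held in all 15 alternatives, with log2 fold changes of 0.496 to 0.699 with any 1 library left out. That of pax2a ended with DESeq2 (-0.294, adjusted p = 0.151), so that 0 members were lower there, and its values with 1 library left out ran from -0.331 to -0.263 (adjusted p = 0.0201 to 0.105), with 0 or 1 members called lower and 1 higher. The members nphs1, hnf1ba and cdh17 kept their sign and stayed uncalled throughout. Under the stricter filter, wt1b had too few counts and was not tested. The sign of wt1a, at -0.058 to 0.051 with 1 library left out, turned without wildtype replicate 2 (0.051) or mutant replicate 2 (0.031), and that of wt1b (-0.137 to 0.437) without mutant replicate 3 (-0.137). Among related genes, uncalled in every setting, signs turned for slc20a1b (-0.041 to 0.023 with 1 library left out) without wildtype replicate 2 (0.023) or mutant replicate 3 (0.021) and for mecom (-0.123 to 0.023) without mutant replicates 1 (0.023) or 3 (0.001). The causes were not tested.

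Over all genes, 1184 were higher and 1188 lower, against 635 and 585 with DESeq2, and 615 to 1376 and 627 to 1282 with 1 library left out. With DESeq2 the podocyte list held 1 higher gene and the transport list 0 lower, and the 5 kidney lists without the members held 9 higher. With 1 library left out, the ranges of higher and lower counts were 1 to 4 and 0 for podocyte genes, 0 to 1 and 1 to 3 for transcription factors, 4 to 8 and 0 to 2 for transport, 3 to 6 and 1 for tubule epithelium, and 7 to 16 and 3 to 6 for the 5 kidney lists without the members. With the replicate number as a block, 1223 genes were higher and 1247 lower, and pax2a (-0.296, adjusted p = 0.0179) and slc20a1a (0.602, adjusted p = 0.00322) were still called. Correlations across genes between same-numbered wildtype and mutant libraries were -0.05, -0.003 and 0.022, within those of differently numbered ones (-0.078 to 0.08). No pairing by number was seen, but with 3 libraries per group this cannot exclude it. The other scalings moved the median of all genes to between -0.007 and 0.003. Depth limits nphs1 and wt1b most, at 10.39 to 43 counts per library.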
